A study of Mus musculus with 768 samples.

Results

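The proteasome is the barrel-shaped protease that degrades ubiquitin-tagged proteins. Its genes were taken here as every gene of the table named Psma, Psmb, Psmc or Psmd followed by a number, which gave 39 of 27723 genes. They comprised 14 standard subunits of the core particle, 17 of the regulatory particle, 3 interferon-inducible beta subunits, 2 tissue-restricted core subunits and 3 assembly chaperones of the regulatory particle. Single mouse cells of the embryonic stem (ES) cell line Ainv15(iNgn2.Isl1.Lhx3.V5) were profiled with SMART-Seq2, a full-length single-cell RNA-seq method. Every cell, also at 0 h, carried the same doxycycline-inducible cassette of the 3 factors Ngn2, Isl1 and Lhx3, a combination that drives ES cells towards motor neurons. Embryoid bodies were formed for 2 days, 3 µg/ml of doxycycline was then added, and 96 viable cells were sorted singly at each of 0, 6, 12, 18, 24, 30, 36 and 48 h. The labels name 1 inducible line and no separate cultures within a time point.

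In this protease the core particle is a stack of rings of alpha and beta subunits, and 3 of the beta subunits, Psmb5, Psmb6 and Psmb7, carry the standard catalytic sites. The regulatory particle caps the core. Its Psmc ATPases unfold the substrate, and its non-ATPases bind ubiquitin (Psmd4) or cut the chain off (Psmd14). Cells exposed to interferon replace the catalytic subunits with Psmb8, Psmb9 and Psmb10, which form the immunoproteasome of antigen processing.

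Values are TPM, transcript abundances divided by transcript length and scaled to the same total in every cell, so that levels of different genes can be set side by side. The 368 of 768 cells with at least 2000 genes above 0 were used: 37, 52, 44 and 14 cells at 0, 12, 36 and 48 h, and 53, 56, 55 and 57 cells at 6, 18, 24 and 30 h. The 8 time points formed 2 sets. Mean Sod1 was 19553 to 65262 TPM at 0, 12, 36 and 48 h and 518 to 807 TPM at 6, 18, 24 and 30 h, and times were therefore compared only within a set. The labels state 2 library batches, but the sources used here do not say which cells belonged to which. Median genes above 0 were 2141 to 5304 per cell in the first set and 6481 to 7484 in the second. The cassette's Lhx3 was above 0 in 2.70% of cells at 0 h and in 53.8% at 12 h. Of 10 pluripotency markers 8 passed the filter at 36 h against 0 h and all 8 were at least 2-fold lower. The 2 that did not pass were Nanog and Pou5f1, and Pou5f1 was at 30.0, 31.9, 94.5 and 1.39 TPM at 0, 12, 36 and 48 h, above 0 in 6 of 44 cells at 36 h. In the same comparison all 8 neuron markers were at least 2-fold higher. Of 7 haematopoietic markers 1 to 5 were above 0 in any cell of a time point, and their summed mean was 1.67 to 39.2 TPM, with CD52 at 0 in all cells. Each time point is 1 sample, so no test, standard error or p-value is given, and every SD below is over cells.

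Most of the 31 standard subunits were detected in most cells of the 6 to 30 h set. The median cell had all 31 above 0 at each of these 4 times, and the lowest cells had 21, 16, 26 and 16. Their summed level was 13316 ± 3380, 12757 ± 4338, 13166 ± 2738 and 12394 ± 3075 TPM at 6, 18, 24 and 30 h (SD over 53, 56, 55 and 57 cells). In single cells the sum reached from 4006 to 19587 TPM at 6 h, with a median of 13875, and from 3697 to 18219 TPM at 30 h, with a median of 12888. These sums were 1.33, 1.28, 1.32 and 1.24% of the total TPM, and they differed by less than the SD between cells of any of these times.

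Core subunits filled the top of the order in the 6 to 30 h set. By the mean of the 4 time points from 6 to 30 h, the 13 highest of the 31 standard subunits were all core subunits. Psma7, an alpha-ring subunit, was the highest at every one of the 8 times. From 6 to 30 h its means were 1298 ± 799, 1221 ± 838, 1162 ± 441 and 1197 ± 689 TPM, and 100% of cells were above 0. In the first set they were 1259 ± 750, 1549 ± 1025, 1419 ± 1459 and 2480 ± 1662 TPM, with 92.9% of cells above 0 at 48 h. From 6 to 30 h Psma2 and Psma4, also of the alpha ring, followed with means over the 4 times of 789 and 700 TPM. That difference was within their SD between cells at each time. The core subunit furthest down there was Psmb4 at 387 TPM, ranked 15, just under Psmd7, the highest regulatory subunit, at 410 TPM. In the 0 to 48 h set the order was more mixed, with the regulatory subunits Psmd7, Psmd11 and Psmc1 ranked 3, 6 and 7 of the 31.

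The low end was held by Psmd13, Psmd8 and Psmd3, which are scaffold subunits of the regulatory particle. Psmd3 stood apart. From 6 to 30 h its means were 15.5 ± 16.4, 11.1 ± 16.2, 12.6 ± 19.8 and 23.9 ± 35.4 TPM, and it was above 0 in 75.5, 75.0, 54.5 and 75.4% of cells. The next lowest, Psmd13 and Psmd8, had means over these times of 140 and 154 TPM and were above 0 in at least 87.5% of cells. The order of the 31 subunits was similar at these 4 times, with Spearman correlations across genes of 0.850 to 0.968 between pairs of times. Within the core they were 0.662 to 0.881, and within the regulatory particle 0.581 to 0.909. Between the means of the 2 sets the correlation over all 31 was 0.705. Between single times of different sets, correlations within the core ran from -0.02 to 0.80 and within the regulatory particle from 0.43 to 0.87. Genes are not independent replicates, and these coefficients only describe the order.

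**Figure D1:**
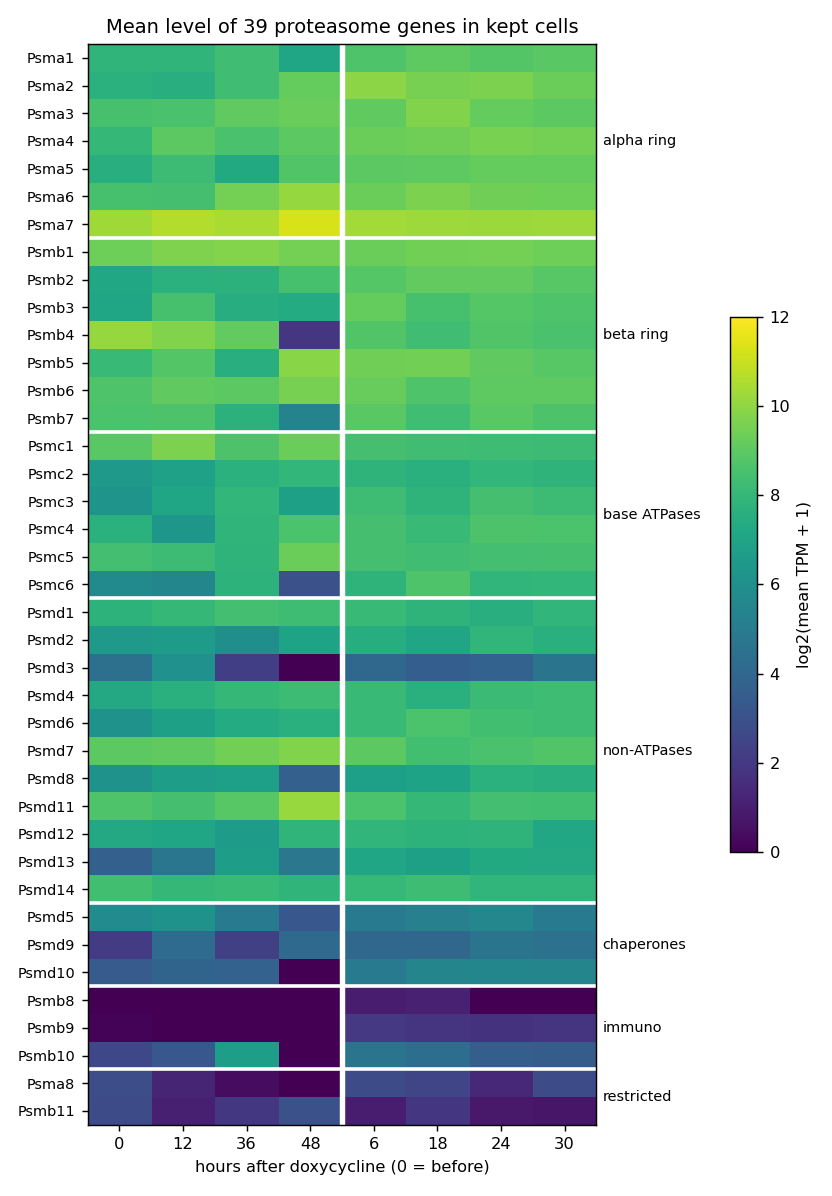
Mean level of each of the 39 proteasome genes, as log2(mean TPM + 1) over kept cells, by time point (columns, hours after doxycycline) and subunit class (rows). The white vertical line separates the 2 sets of time points. Psma7 is the brightest row at every time, Psmd3 is the darkest standard subunit at 36 and 48 h and in all 4 columns from 6 to 30 h, and Psmb8 and Psmb9 are among the darkest rows.

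Core and regulatory particle were compared per subunit. In the 6 to 30 h set a core subunit averaged 633, 622, 621 and 576 TPM at 6, 18, 24 and 30 h, and a regulatory subunit 262, 239, 263 and 255 TPM. The ratio was 2.41, 2.60, 2.36 and 2.26. The core was the higher of the 2 per subunit in 52 of 53 cells at 6 h and in all 56, 55 and 57 cells of the later times. In the other set the ratio was 2.22, 2.41, 1.94 and 1.96 at 0, 12, 36 and 48 h, with the core higher in 36 of 37, 51 of 52, 38 of 44 and 11 of 14 cells. Relative to the first time of its set, the log2 ratio differed by 0.12, -0.19 and -0.18 at 12, 36 and 48 h and by 0.11, -0.03 and -0.10 at 18, 24 and 30 h. The SD of that ratio between cells of a time point was 0.37 to 1.46. When each gene's median over cells replaced its mean in the sums, the 36 and 48 h differences became 0.81 and 1.28. Each cell's own log2 ratio per subunit had medians over cells of 1.12, 1.25, 0.89 and 1.07 at 0, 12, 36 and 48 h. By that measure 36 and 48 h were below 0 h. A median cell had 16.5 and 14 of the 31 standard subunits above 0 at 36 and 48 h.

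Inside the core, the alpha ring was above the beta ring at 6 h, with 714 against 551 TPM per subunit, and at 30 h, with 679 against 473. At 0 and 12 h the rings were close, at 407 against 444 and 498 against 513 TPM, and at 36 and 48 h the alpha ring was higher, at 547 against 387 and 830 against 425 TPM. Inside the regulatory particle, the 6 ATPases averaged 291 to 314 TPM and the 11 non-ATPases 210 to 242 TPM across the 6 to 30 h set.

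**Figure D2:**
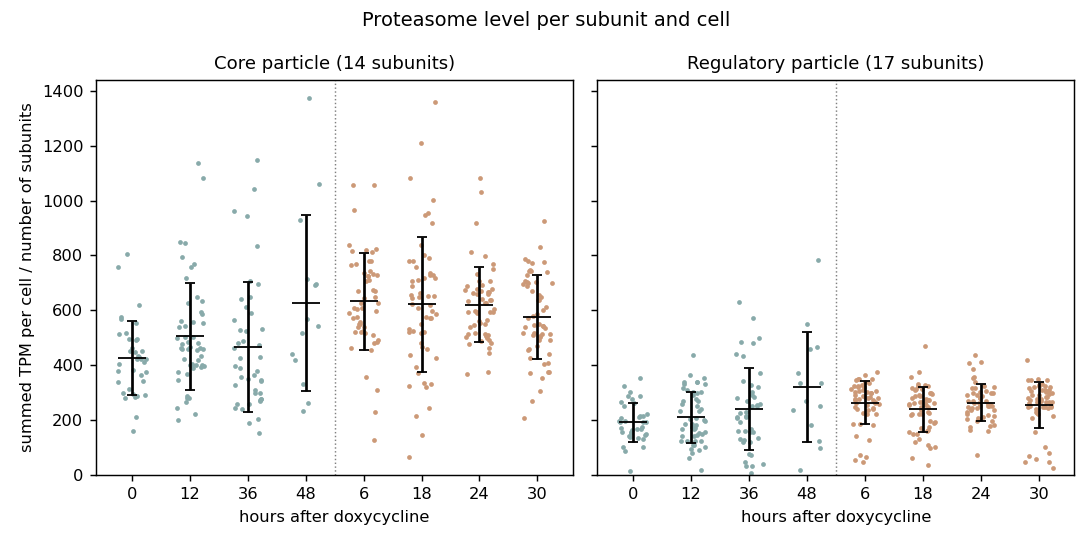
Summed TPM of the core particle (left, 14 subunits) and regulatory particle (right, 17 subunits) divided by the number of subunits, one point per kept cell, by hours after doxycycline. Horizontal bars are means and error bars the SD over cells, and the dotted line separates the sets. Core means run from 426 to 633 TPM and regulatory means from 192 to 320 TPM, with cells of all times overlapping.

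From 6 to 30 h the standard proteasome stayed nearly level while most markers of the starting cells were lower. A gene entered a comparison when its mean was at least 10 TPM in the higher time point and at least 25% of that time's cells were above 0, and it was counted as higher or lower at 2-fold on the log2(mean + 1) scale. At 30 h against 6 h, 35 of the 39 proteasome genes passed, 0 were 2-fold higher and 1 was 2-fold lower, where 13.9% of the 6317 passing genes were 2-fold higher and 6.03% lower. The median log2 difference of the passing proteasome genes was 0.00, beside 0.20 over all passing genes. Of the 31 standard subunits 27 lay within 1.5-fold of their 6 h level, against 3738 of all 6317 passing genes. The 2 groups were not matched for level. The standard subunits had a median of 382 TPM at 6 h, while the filter admits genes from 10 TPM. The part of level in this contrast was not tested. Pou5f1, the pluripotency factor Oct4, was lower by 2.50 on the same log2 scale. Of the 8 pluripotency markers that passed 6 were 2-fold lower, while Sall4 and Nanog differed by 0.03 and -0.33.

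The same held at the intermediate times. At 18 h against 6 h, 35 passed and 0 were 2-fold higher or lower, where 11.8% of passing genes were higher and 7.36% lower. At 24 h against 6 h, 35 passed and again 0 were 2-fold higher or lower, beside 13.5% and 6.28% of passing genes. The 3 comparisons share the 6 h cells. Median differences were -0.14 at 18 h and 0.06 at 24 h, beside 0.07 and 0.24 over all passing genes.

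Psmb10 was the 1 gene past 2-fold at 30 h, at -1.09, and it is described with the immunoproteasome. The others at the ends of the order were smaller. Psmd12, a scaffold subunit, differed by -0.72 on the log2 scale, with means of 236 ± 129 and 143 ± 100 TPM at 6 and 30 h. Psma2 was at 966 ± 644 and 636 ± 304 TPM, a difference of -0.60. Psmb5, the subunit with chymotrypsin-like activity, was at 682 ± 453 and 473 ± 241 TPM, a difference of -0.53. At the other end, Psmd8 differed by 0.76, from 107 ± 91.0 to 182 ± 127 TPM, Psmd3 differed by 0.59, and the assembly chaperones Psmd10 and Psmd9 by 0.58 and 0.45. For Psmd12, Psmb5 and Psmd8 the difference in means was smaller than the SD of either time. For Psma2 it was larger than the SD at 30 h and smaller than the one at 6 h.

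Psmd4, the ubiquitin receptor, was at 282 ± 168, 194 ± 160, 291 ± 191 and 304 ± 219 TPM at 6, 18, 24 and 30 h. Psmd11, a scaffold subunit, was at 382 ± 197, 255 ± 202, 339 ± 163 and 327 ± 216 TPM. Psmd14, the deubiquitinase, was at 264 ± 164, 313 ± 207, 239 ± 200 and 237 ± 170 TPM. None of these 3 was 2-fold away from 6 h.

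**Figure D3:**
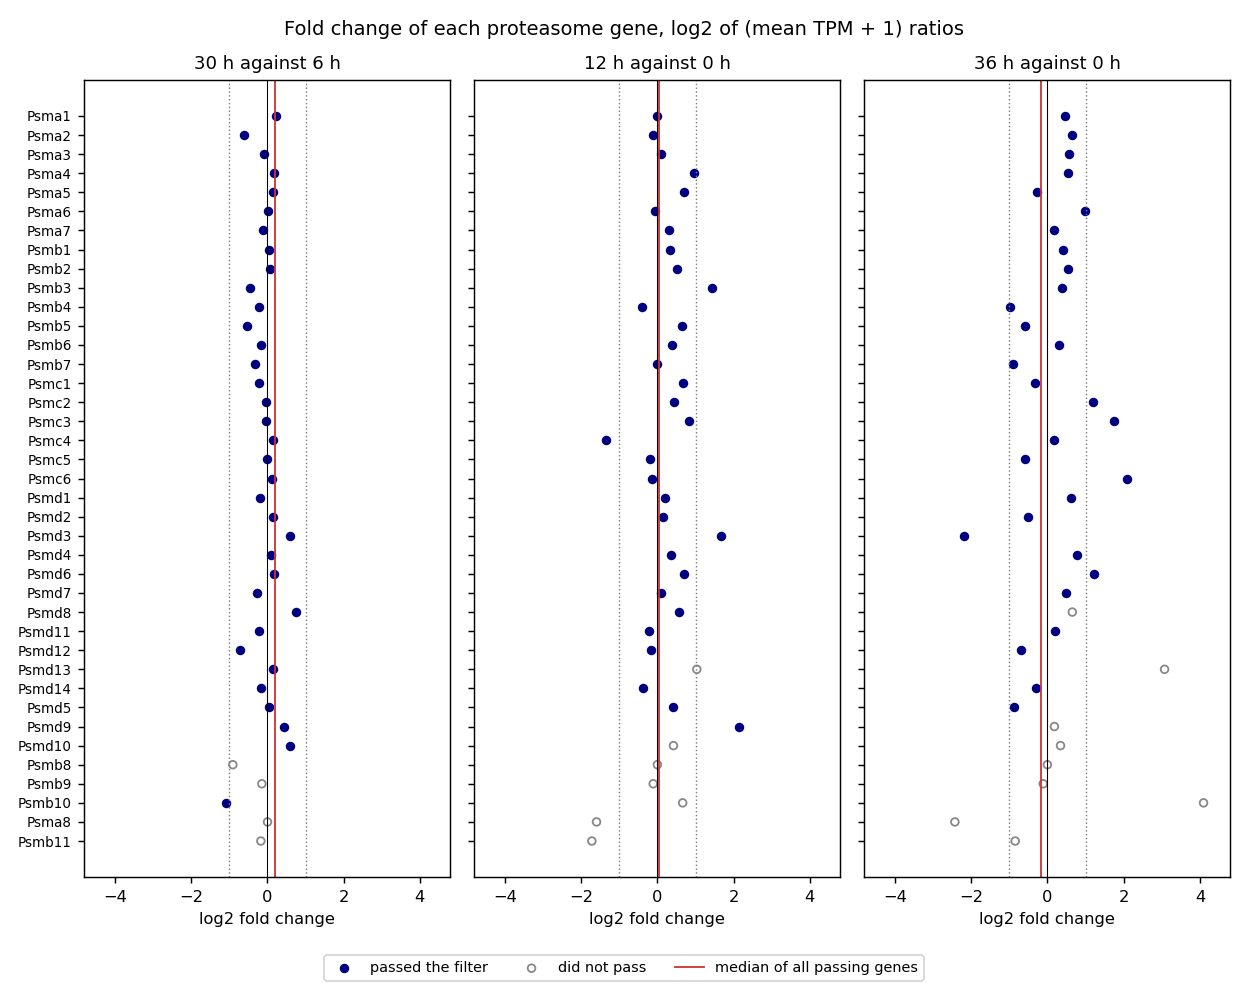
Log2 difference of each proteasome gene (rows) at 30 h against 6 h, 12 h against 0 h and 36 h against 0 h, from mean TPM + 1 over kept cells. Filled points passed the filter on low values, open points did not, dotted lines mark 2-fold and the red line the median of all passing genes. At 30 h against 6 h the points stay within 2-fold except Psmb10 at -1.09, and the spread is wider in the 2 comparisons with 0 h.

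In the 0 to 48 h set single subunits varied more, in cells with fewer genes detected. The median number of standard subunits above 0 was 26, 23.5, 16.5 and 14 of 31 at 0, 12, 36 and 48 h, in step with median genes above 0 of 5304, 4269, 2894 and 2141. The part of detection in the differences below was not tested. The summed standard level was 9224 ± 2247, 10652 ± 3381, 10618 ± 4294 and 14212 ± 5590 TPM at 0, 12, 36 and 48 h, which was 0.922, 1.07, 1.06 and 1.42% of total TPM. The differences from 0 h were smaller than the SD at the later time.

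At 12 h against 0 h, 32 of the 39 passed, 3 were 2-fold higher and 1 lower, beside 17% and 13% of the 5848 passing genes. The median was 0.31, against 0.04 over all passing genes. From each gene's median over cells it was -0.46, with 1 member 2-fold higher and 9 lower. That measure was not computed over all passing genes. Psmd9, a chaperone of the ATPase ring, differed by 2.13 on the log2 scale, with means of 3.23 ± 3.59 and 17.5 ± 55.6 TPM at 0 and 12 h, yet it was above 0 in fewer cells at 12 h (50.0%) than at 0 h (59.5%). Its difference was -0.79 from the gene's median over cells and -1.42 with all cells included. Psmd3 was at 20.2 ± 44.2 and 66.7 ± 133 TPM, a difference of 1.67, Psmb3 differed by 1.44 and Psma4 by 0.96. Psmc4, an ATPase, was at 205 ± 393 and 79.5 ± 162 TPM, a difference of -1.36. Psmb4, Psmd14 and Psmd11 came next from below, at -0.39, -0.37 and -0.22.

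At 36 h against 0 h, 30 passed, 4 were 2-fold higher and 1 lower, beside 22.5% and 28.5% of the 5255 passing genes. The median was 0.35, against -0.18 over all passing genes, and -2.75 from gene medians over cells. The 4 higher ones were Psmc6, Psmc3, Psmd6 and Psmc2, with differences of 2.10, 1.74, 1.21 and 1.20. All 4 were above 0 in a smaller share of cells at 36 h than at 0 h: Psmc6, for example, was above 0 in 34.1% and 62.2% of cells. In 1 cell of 36 h Psmc6 reached 3600 TPM, which was 37.5% of its total there, and the mean without that cell was 139 TPM against 218 with it. From gene medians over cells all 4 were lower than at 0 h, by log2 differences of -2.25, -3.92, -4.16 and -2.84. By these medians 0 members were 2-fold higher and 25 lower. The same was not counted over all passing genes, so it cannot be read as particular to the proteasome. Psmd3 differed by -2.19, from 20.2 ± 44.2 to 3.65 ± 17.6 TPM, with 72.4% of its 36 h total in 1 cell. Psmb4, Psmb7 and the chaperone Psmd5 differed by -0.99, -0.91 and -0.87.

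At 48 h only 14 cells were left. Against 0 h, 32 proteasome genes passed, 9 were 2-fold higher and 6 lower, beside 22.8% and 43.4% of the 5099 passing genes, with a median of 0.77 against -0.62 over all passing genes. That median was -1.85 from gene medians over cells, 0.16 with all cells and 1.39 after rescaling to a median of 0 over all passing genes. Psmb4 differed by -8.18, with means of 1095 ± 1120 and 2.79 ± 10.4 TPM at 0 and 48 h. At 48 h 1 of 14 cells was above 0. Psmd3 was listed at 0 in all 14 cells. For a count of 0, 3 cells are taken as the limit, here 21.4%, and it limits cells with a value above 0, not cells that express the gene. Psmb7 and Psmc6 differed by -3.24 and -2.71. Psmd9, Psmb5, Psma6 and Psmc2 were the highest, at 2.02, 1.75, 1.59 and 1.50. For Psmb5, 1 cell held 34.4% of the 48 h total. From gene medians over cells 3 members were 2-fold higher and 20 lower, again without a count over all passing genes. With all 96 cells of each time 1 was higher and 1 lower. The 3 comparisons with 0 h share the 0 h cells.

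The 3 catalytic subunits were far above their immunoproteasome counterparts in the 6 to 30 h set, with mean Psmb7 over mean Psmb10 at 20.9, 16.7, 42.2 and 37.4. That ratio was 2.02 at 36 h. From 6 to 30 h Psmb5 averaged 682, 694, 537 and 473 TPM, Psmb6 592, 419, 511 and 525 TPM, and Psmb7 493, 319, 482 and 394 TPM. The immunoproteasome subunits made up 1.53, 1.57, 0.895 and 0.938% of the TPM of these 6 catalytic genes together. Promoter letters of 2 standard subunits and of Psmb10 are shown as examples of both kinds of catalytic subunit. None of these 3 replaces another in the ring. Sequences are from RefSeq (GRCm38.p6), 150 bases each, ending at the last base before any exon annotated in GENCODE M21 or the RefSeq gene. They read 5′ to 3′ along the gene's strand, with capitals for motif matches. Psmb5 lies on the minus strand at chr14:54618023-54618172, Psmb6 on the plus strand at chr11:70525174-70525323 and Psmb10 on the minus strand at chr8:105938445-105938594.
Psmb5: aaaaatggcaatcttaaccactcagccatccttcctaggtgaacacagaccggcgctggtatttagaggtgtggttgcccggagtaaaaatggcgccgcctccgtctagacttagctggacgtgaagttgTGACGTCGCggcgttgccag
Psmb6: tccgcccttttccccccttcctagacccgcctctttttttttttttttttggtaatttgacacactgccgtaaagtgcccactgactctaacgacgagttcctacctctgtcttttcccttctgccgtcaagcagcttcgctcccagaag
Psmb10: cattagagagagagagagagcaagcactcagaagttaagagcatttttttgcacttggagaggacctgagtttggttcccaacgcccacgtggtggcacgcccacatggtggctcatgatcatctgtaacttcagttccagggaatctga

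The capitals in Psmb5 match TGACNNNGC, the letters of the antioxidant response element bound by the Nfe2l1 and Nfe2l2 factors, which are known to drive proteasome genes. In all, 4 motifs were searched on both strands of the 250 bases before the start in the RefSeq promoter table, in the 32 proteasome genes with an entry. TGACNNNGC occurred in 5 of 32, or 15.6%, and in 11.5% of 27025 genes. The 5 were Psmb5, Psmb6, Psmc6, Psmd12 and Psmd9. The Psmb6 match lies past the end of the letters shown, inside the RefSeq gene span, which begins at 70525324. The interferon-gamma activated site TTCNNNGAA occurred in 1 of 32 (Psmb8), or 3.12%, and in 8.13% of genes. The core letters of the interferon-stimulated response element occurred in 3 of 32, or 9.38%, and in 3.46% of genes, and the CCAAT box, CCAAT, in 13 of 32, or 40.6%, and in 37.5% of genes. The Psma3 window, with a CCAAT match, also lay inside its RefSeq gene span. No matches of different motifs overlapped (0 of all matches). These are matches of letters in 1 window and say nothing on whether a factor was bound.

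Of the immunoproteasome, Psmb10 was the 1 subunit seen in many cells. It lies on chromosome 8 at 105935728 to 105938392 (RefSeq, GRCm38.p6), replaces Psmb7 and carries the trypsin-like site. It was above 0 in 37 of 53 cells at 6 h (69.8%, exact 95% binomial interval 55.7 to 81.7), 37 of 56 at 18 h (66.1%, 52.2 to 78.2), 26 of 55 at 24 h (47.3%, 33.7 to 61.2) and 20 of 57 at 30 h (35.1%, 22.9 to 48.9). The intervals cover counting error within these cells only and are no test between times. Mean levels were 23.6 ± 30.9, 19.0 ± 38.3, 11.4 ± 18.5 and 10.6 ± 19.8 TPM. The median cell was at 9.61 and 5.37 TPM at 6 and 18 h and at 0 at 24 and 30 h, and the highest cells were at 130 and 193 TPM and at 81.7 and 78.8 TPM. The SD exceeded the mean at each time, and cells of all 4 times overlapped. Haematopoietic cells are known for high immunoproteasome levels. The summed mean of their 7 markers was 24.8, 11.5, 14.3 and 5.07 TPM at these times. Cd68 was at 10.7 TPM at 6 h and 1.34 TPM at 30 h, a log2 difference of -2.32, while Cd52 was at 0 in all cells. The part of these markers in the Psmb10 values was not tested.

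Shares at 24 and 30 h were below those at 6 and 18 h in deeper cells too. Among cells with at least 4000 genes above 0, Psmb10 was above 0 in 71.4, 73.5, 47.2 and 37.7% at 6, 18, 24 and 30 h, and among those with at least 6000 in 70.0, 72.5, 56.4 and 41.0%. In both, 18 h was slightly above 6 h, the reverse of the order over all kept cells. With at least 6000 genes, median genes above 0 still differed, at 7647, 7940.5, 7087 and 6916 at 6, 18, 24 and 30 h. The part of depth in these shares was not tested. At 30 h against 6 h the log2 difference of the mean was -1.08 with at least 4000 genes and -0.86 with at least 6000, where it no longer reached 2-fold. A pseudocount of 10 gave -0.71. These cuts were chosen after the values had been seen. In GENCODE M21 the antisense gene Gm16156 spans Psmb10, and SMART-Seq2 does not mark strand, so reads of the 2 genes cannot be told apart where they share exons.

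In the other set Psmb10 was above 0 in 9 of 37 cells at 0 h, 8 of 52 at 12 h, 6 of 44 at 36 h and 0 of 14 at 48 h (limit 21.4% of cells with a value above 0). The 36 h mean was the highest of all times at 103.5 ± 340 TPM, and it came from those 6 cells. Of the 36 h total 37.8% was in 1 cell at 1720 TPM, and a second cell had 1175 TPM. Psmb10 was above Psmb7 in 5 of these 44 cells, and in 2 of 53 cells at 6 h, 1 of 52 at 12 h and 0 at each other time.

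Psmb8 and Psmb9, which sit together in the major histocompatibility region of chromosome 17, were nearly absent. Psmb8 was above 0 in 2 of 53 cells at 6 h and 1 of 56 at 18 h, and in 0 of 55 at 24 h and 0 of 57 at 30 h (limits 5.45 and 5.26% of cells with a value above 0). Psmb9 was above 0 in 7, 4, 4 and 4 cells at 6, 18, 24 and 30 h, in 1 of 37 at 0 h and in 0 at 12, 36 and 48 h. At least 2 of the 3 immunoproteasome subunits were seen together in 5, 3, 3 and 3 cells from 6 to 30 h.

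The tissue-restricted core subunits were low as well. Psma8, an alpha subunit of the testis, was above 0 in 37.7, 17.9, 7.27 and 22.8% of cells at 6, 18, 24 and 30 h, at means of 1.50 to 5.66 TPM. Psmb11, a beta subunit of the thymus, was above 0 in 54.1% of cells at 0 h and in 29.8 to 39.6% from 6 to 30 h, at means of 0.675 to 5.84 TPM at these 5 times. At 18 h 79.4% of its total was in 1 cell.

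**Figure D4:**
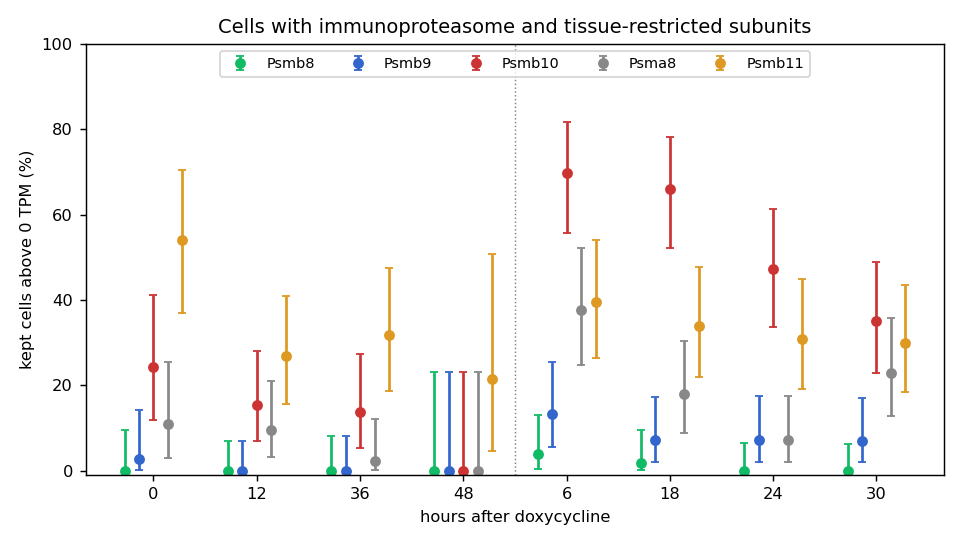
Share of kept cells above 0 TPM (percent) for the 3 immunoproteasome and 2 tissue-restricted subunits by hours after doxycycline, with exact 95% binomial intervals that cover counting error only. The dotted line separates the sets. Psmb10 goes from 69.8% at 6 h to 35.1% at 30 h, while Psmb8 and Psmb9 stay at or under 13.2%.

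Genes that work with the proteasome were taken from lists chosen with earlier results of these data known. At 30 h against 6 h, all 5 activators and inhibitors passed and 1 was 2-fold higher. Over all 6317 passing genes 13.9% were 2-fold higher and 6.03% lower. Psme2, which forms the interferon-inducible cap with Psme1, was at 109 ± 113 and 225 ± 202 TPM, a log2 difference of 1.04. Psme1 was at 92.1 ± 106 and 175 ± 171 TPM, a difference of 0.92. Among antigen processing genes, the class I heavy chain H2-K1 was higher by 1.23 and its partner B2m by 1.05. Psmb10 differed by -1.09 in the same comparison.

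Assembly factors and ubiquitin genes stayed under 2-fold at 30 h against 6 h. These lists are too short to be told apart from the shares over all passing genes, 13.9% higher and 6.03% lower. Of 5 core assembly factors all passed and 0 were 2-fold away from 6 h. Psmg3 differed by 0.60 and Pomp, which matures the beta ring, by -0.29. Of 7 further regulatory subunits and bound enzymes 6 passed and 0 were 2-fold away, with Adrm1, a ubiquitin receptor, at -0.34. All 6 ubiquitin genes passed and 0 were 2-fold away, with Uba6, a ubiquitin-activating enzyme, at -0.84. Of the 4 transcriptional controls 2 passed. Nfe2l1, which induces proteasome genes when the protease is blocked, differed by -0.89, from 15.7 ± 17.6 to 7.98 ± 16.9 TPM, and was above 0 in 86.8 and 47.4% of cells. Nfe2l2 differed by -0.24.

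At 12 h against 0 h the same lists gave 0 genes 2-fold higher, where 17% of all 5848 passing genes were higher and 13% lower. Nfe2l1 was lower, at -2.29, as was Tapbp, a peptide-loading chaperone, at -2.05. B2m, Shfm1, Adrm1 and Ubb were higher by 0.81, 0.82, 0.76 and 0.43, and Nfe2l2 by 0.46. Psme1 and Psme3 differed by 0.32 and 0.30, and Psmg1 and Psmg2 by -0.31 and -0.12.

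The loss of Pou5f1 was set beside the proteasome cell by cell. Pou5f1 was at 307 ± 225, 70.1 ± 80.4, 115 ± 196 and 53.4 ± 100 TPM at 6, 18, 24 and 30 h, and above 0 in 96.2, 89.3, 76.4 and 50.9% of cells. A proteasome score was made for each cell as the mean log2(TPM + 1) of the 31 standard subunits. Its Pearson r with Pou5f1 was 0.78, 0.59, 0.11 and 0.10 at 6, 18, 24 and 30 h (n = 53, 56, 55 and 57 cells), and Spearman's rho was 0.47, 0.62, 0.26 and 0.24. These are descriptions over cells of 1 time point, in which both measures share the cell's depth.

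The early coefficients moved with the number of genes detected. After the linear trend of both with the log2 number of genes above 0 was removed, r was 0.47, 0.25, 0.07 and -0.13. In cells with at least 4000 genes it was 0.52 at 6 h and 0.39 at 18 h. Without the 2 cells farthest from the median of Pou5f1, r at 6 h was 0.57. In the other set r was 0.46, 0.13, 0.26 and -0.09 at 0, 12, 36 and 48 h, where 17 of 37, 14 of 52, 6 of 44 and 1 of 14 cells were above 0 for Pou5f1.

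At 30 h core levels in cells with and without Pou5f1 were close. The summed core was 7827 ± 2053 TPM in the 29 cells above 0 for Pou5f1 (median 6710 genes) and 8301 ± 2210 in the 28 cells at 0 (median 6321 genes). Psmb10 was above 0 in 12 of those 29 and 8 of those 28 cells, and in 20 of 42 and 6 of 13 at 24 h. At 18 h the groups held 50 and 6 cells, with medians of 7619 and 3296.5 genes, and the ratio of summed core to summed regulatory TPM was 2.07 and 3.07. Psmb10 was above 0 in 36 of those 50 and 1 of those 6 cells. At 0 h the summed core was 6772 ± 1770 TPM in 17 cells above 0 for Pou5f1 and 5271 ± 1736 in 20 at 0, a difference below either SD. Among cells above 0 for Pou5f1, Psmb10 was above 0 in 5 of 17, 5 of 14 and 0 of 6 at 0, 12 and 36 h. Among cells at 0 for Pou5f1 it was above 0 in 4 of 20, 3 of 38 and 6 of 38, so 36 h went the other way. A value of 0 in a cell may also be a missed transcript, and this division rests on 1 measured gene, so it was not tested.

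By single subunit, the highest Spearman correlations with Pou5f1 at 6 h were those of Psmb2 at 0.53, Psmd2 at 0.47 and Psmd7 at 0.46. These 3 were picked for their 6 h values, and at 18 h they had 0.07, 0.53 and 0.24, and at 30 h 0.00, 0.14 and -0.16. Psmb10 correlated at 0.32, 0.38, 0.08 and 0.18 at 6, 18, 24 and 30 h. Psma7, the most abundant subunit, had -0.18, 0.01, -0.15 and -0.04.

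**Figure D5:**
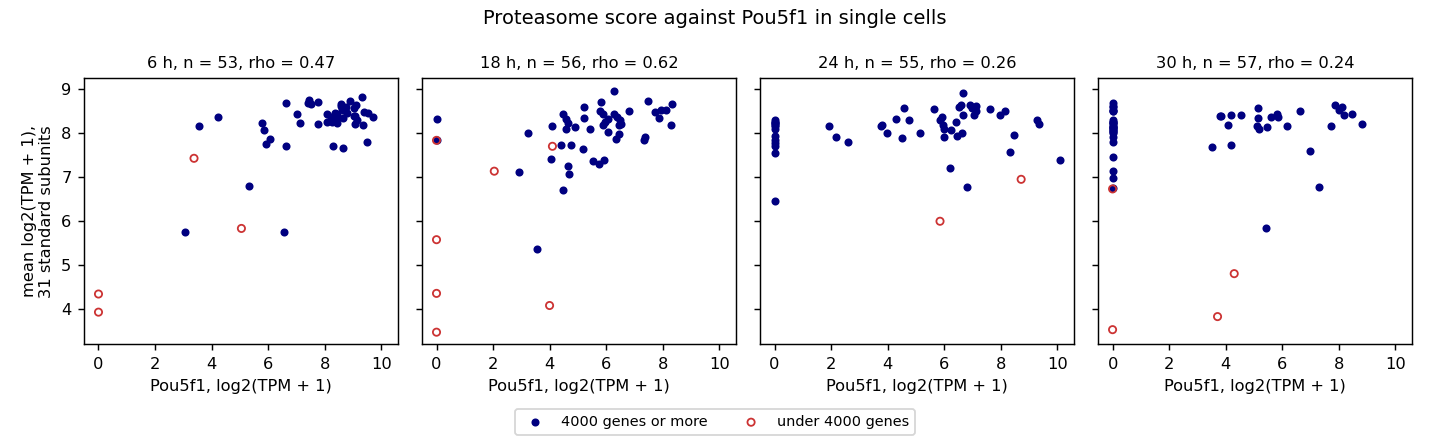
Proteasome score (y axis, mean log2(TPM + 1) of the 31 standard subunits) against Pou5f1 (x axis, log2(TPM + 1)) in each kept cell at 6, 18, 24 and 30 h. Open red points are cells with under 4000 genes above 0 and filled points cells with 4000 or more. Spearman's rho is 0.47, 0.62, 0.26 and 0.24, and the lowest scores are mostly those of cells with fewer genes.

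Over all kept cells, correlations between subunits were weak at 24 h and higher at 6, 18 and 30 h. In cells with at least 4000 genes the core value at 30 h was close to that at 24 h. The mean pairwise Pearson r among the 14 core subunits was 0.48, 0.44, 0.14 and 0.36 at 6, 18, 24 and 30 h, and in cells with at least 4000 genes 0.30, 0.36, 0.13 and 0.15. Among the 17 regulatory subunits it was 0.42, 0.37, 0.13 and 0.40, and between the particles 0.40, 0.37, 0.11 and 0.34. In cells with at least 4000 genes these were 0.35, 0.27, 0.11 and 0.22 among regulatory subunits, and 0.29, 0.26, 0.07 and 0.14 between the particles. With the trend in genes above 0 removed, the means were 0.36, 0.38, 0.14 and 0.28 within the core, 0.16, 0.21, 0.08 and 0.21 within the regulatory particle and 0.21, 0.26, 0.09 and 0.19 between them. Core and regulatory scores correlated at r = 0.87, 0.86, 0.56 and 0.83, or 0.76, 0.79, 0.50 and 0.66 after the trend with genes above 0 was removed. At 0, 12 and 36 h the mean r within the core was 0.08, 0.11 and 0.02.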

How the data were processed

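Single cells were sequenced with single-end reads of 50 bp at a stated average of 325000 reads per cell, per the labels' protocols. The values are TPM as deposited by the authors, 1 table of 27723 genes. Software named in the submitters' processing notes is bcl2fastq and Picard, without versions, and the build is mm10. For aligner and annotation, nothing is given in the sources used here. Read depth per value is unknown, since TPM does not keep it, and genes above 0 served as the measure of depth. TPM values are shares of a cell's total, so abundant genes lower all others.

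Labels gave each cell's time point, and 0 pairs of columns were identical. Cells were sorted singly and no doublet caller was run. Cells with under 2000 genes above 0 were left out (400 of 768). Means, SD, shares with exact 95% binomial intervals, and log2 of (mean TPM + 1) ratios were computed in Python 3.11.15 with pandas 2.3.3 and scipy 1.17.1. Only the log2 ratio and the filter had been tested on simulated data, drawn from the 6 h cells. The log2 scale understates the change of low genes. Beside a share of 0 stands the share that 3 cells would make. No test was run, as each time point is 1 sample.

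The members and lists, and the sizes counted as changes, were chosen with earlier results of these data known. The 4 promoter motifs, the depth cuts for Psmb10 and the cells singled out were chosen after values had been seen. Genes named were: the immunoproteasome, tissue-restricted and catalytic subunits, Psmd4, Psmd11, Psmd14, Pou5f1, the 4 highest and 4 lowest passing members in the comparisons of 12, 36 and 48 h with 0 h and of 30 h with 6 h, 3 standard subunits from each end of the level order of a set, and 2 genes per partner list for 30 and 12 h. Others, among them those with promoter matches or the highest correlations and B2m at 30 h, were named after their values were seen. Some genes that this rule names are not reported here. All 39 members and all but 3 list genes (Paaf1, Ube3c, Ecm29) matched by symbol. Promoters came from RefSeq (GRCm38.p6) and exons from GENCODE M21. Alternatives were other pseudocounts, a rescaling, medians, other cell cuts, no filter, leaving out each gene's highest cell and, for correlations, other scores.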

Additional observations from a re-analysis of the deposited data

How the results depend on the processing

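Among single members, 1501 values stayed within 1.5-fold of the reported one, 211 moved further, and 18 whose reported value was past 2-fold changed direction. Among values under 2-fold, 183 changed sign. With gene medians over cells 13, 18 and 17 members changed sign at 12, 36 and 48 h against 0 h. At 18, 24 and 30 h against 6 h 4, 7 and 10 did. Among medians 47 of 52 held, among counts 70 of 104, among ratio differences 26 of 28 and among correlations 30 of 37. Under the alternatives, member medians and counts were not set beside those of all passing genes. No paired analysis was possible because cell numbers shared between time points only name wells, and each time point is 1 sample with no test. Cells with at least 4000 genes were absent at 36 and 48 h, so that alternative gave no value there. The cuts at 1000 and 6000 genes and the removal of 2 cells were chosen after seeing the data.

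From gene medians over cells, median log2 differences of the members were -0.46, -2.75 and -1.85 at 12, 36 and 48 h against 0 h. The core to regulatory difference was 0.81 and 1.28 at 36 and 48 h. Members 2-fold higher numbered 1, 0 and 3 at 12, 36 and 48 h and 2 at 24 h. Members 2-fold lower numbered 9, 25 and 20 at 12, 36 and 48 h, and 3 and 1 at 18 and 24 h. Among members past 2-fold, direction changed for Psmd9 at 12 h (-0.79), for Psmc2, Psmc3, Psmc6 and Psmd6 at 36 h (-2.84, -3.92, -2.25 and -4.16) and for Psma5, Psmb2, Psmc2 and Psmd9 at 48 h (-5.52, -0.20, -2.84 and -1.66).

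With all cells, the 48 h median was 0.16. Members 2-fold higher numbered 1, 1, 2 and 1 at 18, 24, 30 and 48 h, and lower 7, 1, 2, 4, 3 and 1 at 12, 18, 24, 30, 36 and 48 h. Among members past 2-fold, direction changed for Psmd9 at 12 h (-1.42) and for Psma2, Psmb2, Psmb5, Psmd9, Psmc6 and Psmd8 at 48 h (-0.44, -0.59, -0.61, -0.94, 0.47 and 1.01). With at least 1000 genes, 4 were higher at 48 h and 1, 4 and 3 lower at 24, 36 and 48 h, and Psmc6 and Psmd8 changed direction at 48 h (1.79 and 0.35). With at least 4000 genes, 0 and 1 were lower at 12 and 24 h, and the Pou5f1 correlation was 0.52 and 0.39 at 6 and 18 h.

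After rescaling to a median of 0 over all passing genes, the 48 h median was 1.39 with 21 higher, and 1 was lower at 24 h. With no filter 3, 1 and 2 were lower at 12, 24 and 36 h. A pseudocount of 0.1 gave 1 lower at 24 h and one of 10 gave 0 lower at 30 h. Without each gene's highest cell 1 and 4 were lower at 24 and 36 h. The Pou5f1 correlation was 0.28 at 18 h with the summed TPM, 0.47, 0.25 and -0.13 at 6, 18 and 30 h with the trend in genes above 0 removed, and 0.57 at 6 h without 2 cells. The cause of these changes was not tested, apart from the smaller sets of cells or genes that the alternatives use by construction.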
